A study of Homo sapiens with 4 samples.

Results

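The 7 mitochondrially encoded complex I mRNAs, MT-ND1 to MT-ND6 and MT-ND4L, were followed in 4 RNA-seq libraries of HEK293T, an established human embryonic kidney line. They were chosen by name, as the genes of chromosome M in the deposited count table that bear the 7 MT-ND symbols. All 7 were found, among 13 mitochondrial mRNAs, 37 mitochondrial genes and 62700 genes in all, and all 7 passed the filter on low counts. The cells were a stable clone that carried a V5-tagged PRADA construct for the mitochondrial matrix, driven by the CMV promoter. PRADA is a proximity labelling system, and the series text describes labelled and enriched material. Cells of all 4 libraries were kept in 100 µM 4-thiouridine (s4U) over 5 h, and 0.5 mM alkyne phenol was present beside s4U during a further 30 min. The 2 labelled libraries also had 10 mM D-amino acid for 30 min, which starts the reaction, while the 2 unlabelled libraries had none. The label DF in the titles of the labelled libraries is not spelled out there. Ribosomal RNA was depleted from total RNA before library preparation.

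The labelled libraries held 9380258 and 12287451 assigned fragments, and the unlabelled libraries held 8172347 and 5771795. Replicates are called biological in the titles without saying how cultures were kept apart, so the p-values rest on the spread among these libraries, which may be technical. All 5 HEK293T markers (LIN28B, PAX2, NEFL, NEFM, INA) had counts in every library, with summed levels of 148 and 150 CPM in labelled and 156 and 183 CPM in unlabelled libraries (CPM, the counts of a gene scaled to a common total of assigned fragments). Markers of blood and of fibroblasts and endothelium were at or near 0, with summed levels of at most 0.244 CPM in any library, and HBB, CD3E, COL1A2 and DCN had no count in any.

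Complex I, the NADH:ubiquinone oxidoreductase, is the entry point of electrons from NADH into the respiratory chain and pumps protons across the inner mitochondrial membrane. Its matrix arm is built of nuclear-encoded proteins that are imported, whereas the proteins of the MT-ND genes form the core of its membrane arm and are made on mitochondrial ribosomes. The mitochondrial chromosome is transcribed from both strands into long precursors that are cut mostly at the tRNAs lying between the coding genes. Complex I mRNAs are therefore synthesised, cut and translated in the matrix, where the construct is directed.

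The genes are given here on GRCh38 with the strand of the deposited table, and each is a single exon. MT-ND1 lies at chrM:3307-4262 and MT-ND2 at chrM:4470-5511, ahead of the cytochrome oxidase genes. MT-ND3 lies at chrM:10059-10404, MT-ND4L at chrM:10470-10766, MT-ND4 at chrM:10760-12137 and MT-ND5 at chrM:12337-14148. These 6 are on the plus strand, and MT-ND6 at chrM:14149-14673 is on the minus strand. The lengths run from 297 bases for MT-ND4L and 346 for MT-ND3 to 1812 for MT-ND5. MT-ND2, MT-ND3, MT-ND4L and MT-ND5 each begin at the base after a tRNA gene, and MT-ND1 begins 2 bases after one. Positions and lengths of the 7 genes were the same in GENCODE 29, whose transcript sequences are printed below.

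The 3′ ends are shown because they differ between the members and because they are where the reading frames meet the next gene. Each line gives the last 30 bases of the coding strand, 5′ to 3′, with the stop codon, or what the genome holds of it, in capitals:
MT-ND1: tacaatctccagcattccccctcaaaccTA
MT-ND2: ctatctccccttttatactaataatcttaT
MT-ND3: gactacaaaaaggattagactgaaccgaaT
MT-ND4L: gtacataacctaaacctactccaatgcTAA
MT-ND4: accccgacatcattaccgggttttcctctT
MT-ND5: ctcatcctaaccctactcctaatcacaTAA
MT-ND6: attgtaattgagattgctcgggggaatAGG
MT-ND4L, MT-ND5 and MT-ND6 end on a whole codon. MT-ND1 ends 2 bases, and MT-ND2, MT-ND3 and MT-ND4 end 1 base, past a whole codon. It is textbook knowledge that polyadenylation completes such stop codons.

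Junctions matter for the counting, because fragments that touch more than 1 gene are ambiguous and stay unassigned. Each member has at most 2 bases between it and the gene on either side, mostly a tRNA gene. Only the junctions between members are shown here. MT-ND4L and MT-ND4 share 7 bases and are known to be carried on a joint mRNA. In the line for that overlap (chrM:10730-10796, plus strand) the shared bases are in capitals. In the line for MT-ND5 and MT-ND6 (chrM:14119-14178, plus strand), which meet end to end on opposite strands with no base between them, the bases of MT-ND6 are in capitals:
MT-ND4L and MT-ND4: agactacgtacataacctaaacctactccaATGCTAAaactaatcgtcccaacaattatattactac
MT-ND5 and MT-ND6: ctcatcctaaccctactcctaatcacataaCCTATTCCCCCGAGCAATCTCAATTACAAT
Ambiguous fragments of all genes came to 9.24% and 9.02% of assigned plus ambiguous fragments in labelled libraries and to 11.3% and 12.8% in unlabelled libraries. The table does not give them by gene, so the loss at these junctions could not be measured.

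The analogue s4U enters RNA in place of uridine, so the uridines of 3 members are shown, as T in capitals, over the first 150 bases of the coding strand. MT-ND1 (chrM:3307-3456, plus strand) had the highest fold change of the 7, MT-ND3 (chrM:10059-10208, plus strand) had the lowest, and MT-ND6 (chrM:14524-14673, minus strand) is the member of the other strand:
MT-ND1: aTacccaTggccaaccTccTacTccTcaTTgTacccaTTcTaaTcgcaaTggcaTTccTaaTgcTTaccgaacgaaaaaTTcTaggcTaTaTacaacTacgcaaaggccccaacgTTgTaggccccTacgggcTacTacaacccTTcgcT
MT-ND3: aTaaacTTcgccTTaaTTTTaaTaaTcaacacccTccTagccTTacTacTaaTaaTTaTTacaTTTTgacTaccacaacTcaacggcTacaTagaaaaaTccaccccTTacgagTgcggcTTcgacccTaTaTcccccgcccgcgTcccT
MT-ND6: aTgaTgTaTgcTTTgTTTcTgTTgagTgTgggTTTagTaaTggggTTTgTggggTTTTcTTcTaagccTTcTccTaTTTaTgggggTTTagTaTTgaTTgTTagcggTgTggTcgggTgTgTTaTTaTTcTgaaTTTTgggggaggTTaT
These stretches hold 36, 41 and 68 T, in that order. Over the whole gene T made up 23.8% of MT-ND1, 30.3% of MT-ND3 and 37.7% of MT-ND6, and 24.7% to 28.6% of the other 4 members. MT-ND6 is guanine-rich on its coding strand, with 35.6% G, against 9.50% to 12.1% in the 6 plus-strand members.

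Complex I mRNAs took a larger part of the labelled libraries. The 7 together made up 11.3% and 12.98% of assigned fragments in labelled libraries, against 3.60% and 4.76% in unlabelled libraries. The group means were 12.2% ± 1.17 in labelled and 4.18% ± 0.824 in unlabelled libraries (SD, n = 2 each), a 2.91-fold ratio. The difference of 7.97 percentage points was several times the spread within either group, and the groups did not overlap. A two-sided exact permutation test returned p = 0.333, and no smaller p can come from 2 libraries against 2. The shares describe bulk libraries, and the series text speaks of labelled and enriched material. Recovery by labelling and enrichment, the number of contributing cells and RNA per cell cannot be told apart here.

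Every member was higher in both labelled libraries than in either unlabelled library. This held for all 7, and a like separation upwards was seen in 22.2% of the 18973 genes tested. Levels are given as CPM scaled by TMM, a normalization that sets the bulk of genes equal between libraries. On that scale all tested genes had a median log2 fold change of -0.01. With edgeR's quasi-likelihood test, 2 of the 7, MT-ND1 and MT-ND6, rose at a Benjamini-Hochberg adjusted p under 0.05 over all genes, where 0.269% of genes did. All 7 had an unadjusted p under 0.05 and a positive fold change, against 5.67% of all genes. DESeq2 called 6 of the 7 as higher, all but MT-ND3, where 0.327% of 19547 genes with an adjusted p were higher. The log2 fold changes from edgeR and DESeq2 differed little, and the adjusted p-values differed widely. The number of calls also depended on single libraries, and so did the number of genes called over the whole table. With 1 library left out at a time, the log2 fold changes of the 7 ran from 0.47 for MT-ND3 to 2.59 for MT-ND1.

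**Figure D1:**
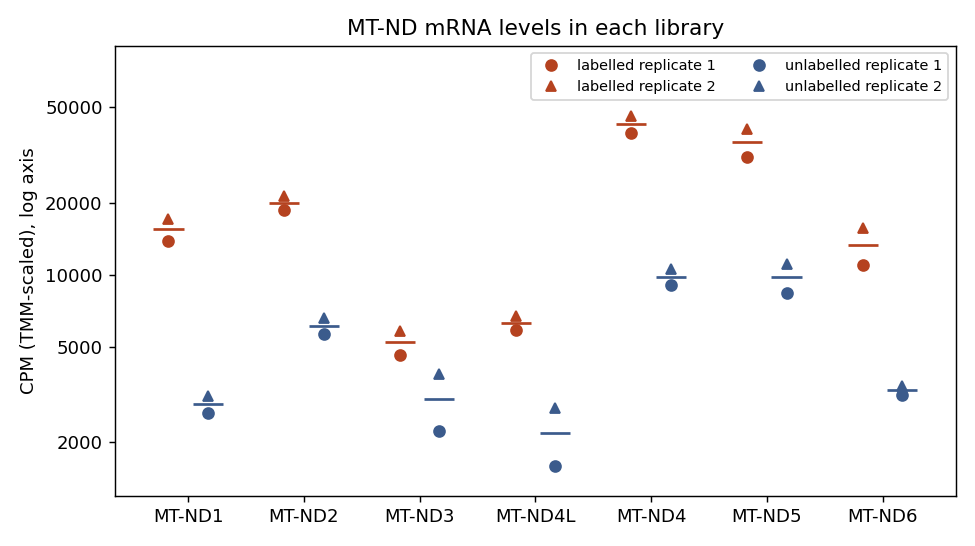
Level of each complex I mRNA in each library, in CPM scaled by TMM on a log axis, for labelled (left, red) and unlabelled (right, blue) libraries. Circles are replicate 1, triangles replicate 2 and short lines group means. All 7 genes were higher in both labelled libraries, and the groups lay closest together for MT-ND3.

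MT-ND1 and MT-ND2 encode core subunits of the membrane arm, and MT-ND1 forms the part nearest the quinone-binding site. MT-ND1 (ENSG00000198888) stood at 13808 and 17107 CPM in labelled libraries, against 2658 and 3111 CPM in unlabelled libraries. Its replicates lay close together and the groups far apart, with a log2 fold change of 2.42 ± 0.34 (SE, edgeR adjusted p 0.00725). MT-ND2 (ENSG00000198763) stood at 18697 and 21331 CPM in labelled libraries, against 5653 and 6630 CPM in unlabelled libraries. The groups did not overlap here either, but its log2 fold change of 1.70 ± 0.36 missed the threshold (edgeR adjusted p 0.0983). With DESeq2 MT-ND2 passed (adjusted p 1.07e-28), and over 11 alternative settings its adjusted p ran from 1.07e-28 to 0.119.

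MT-ND4 and MT-ND5 encode antiporter-like subunits of the proton-pumping arm. MT-ND4 (ENSG00000198886) held the most fragments of the 7 in labelled libraries, at 38998 and 46064 CPM, against 9097 and 10529 CPM in unlabelled libraries. Its log2 fold change was 2.12 ± 0.44 (edgeR adjusted p 0.0948), and DESeq2 passed it (adjusted p 1.02e-42). Across the 11 alternatives the adjusted p of MT-ND4 ran from 1.02e-42 to 0.103, with 7 of them under the threshold. MT-ND5 (ENSG00000198786) stood at 30919 and 40725 CPM in labelled libraries, against 8378 and 11134 CPM in unlabelled libraries. The groups did not overlap. Its log2 fold change was 1.88 ± 0.43 (edgeR adjusted p 0.141, and over the 11 alternatives 1.78e-29 to 0.160).

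MT-ND6, which encodes a further membrane subunit (ENSG00000198695), stood at 10950 and 15632 CPM in labelled libraries, against 3166 and 3442 CPM in unlabelled libraries. The labelled replicates were farther apart than the unlabelled ones, and all labelled values were well above all unlabelled values. The log2 fold change was 2.01 ± 0.33 (edgeR adjusted p 0.0248). MT-ND1 and MT-ND6 were the 2 members that passed under all 11 alternatives as well. The counts were made without strand, so for MT-ND6, as for the other members, RNA of the gene and RNA antisense to it cannot be told apart.

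The short neighbours MT-ND3 and MT-ND4L, which encode small membrane subunits, had the lowest fold changes of the 7 with all 4 libraries, and the widest log2 spread between unlabelled libraries. MT-ND4L (ENSG00000212907) stood at 5876 and 6752 CPM in labelled libraries, against 1589 and 2781 CPM in unlabelled libraries. Its log2 fold change was 1.53 ± 0.31 (edgeR adjusted p 0.0934, and over the 11 alternatives 2.87e-19 to 0.101). MT-ND3 (ENSG00000198840) stood at 4629 and 5851 CPM in labelled libraries, against 2225 and 3868 CPM in unlabelled libraries. The gap between the lower labelled and the higher unlabelled library was only 0.26 on the log2 scale, against 1.08 for MT-ND4L and 1.47 to 2.15 for the other 5. The log2 fold change of MT-ND3 was 0.78 ± 0.31 (edgeR adjusted p 0.381, and over the 11 alternatives 5.39e-07 to 1.00).

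Unlabelled replicate 2, the library with the fewest assigned fragments, moved with these values. It exceeded unlabelled replicate 1 by 0.80 for MT-ND3 and by 0.81 for MT-ND4L on the log2 scale, and by 0.12 to 0.41 for the other 5 members. Replicate 2 was also the higher one in labelled libraries for all 7, by 0.19 to 0.51. Without unlabelled replicate 2 the log2 fold changes of MT-ND3 and MT-ND4L were 1.24 and 2.00, and without unlabelled replicate 1 they were 0.47 and 1.21. MT-ND3 stayed the lowest of the 7 in both cases, but without unlabelled replicate 2 MT-ND4L was above MT-ND2, which was then at 1.83. What part the library had in the lower fold changes was not tested.

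**Figure D2:**
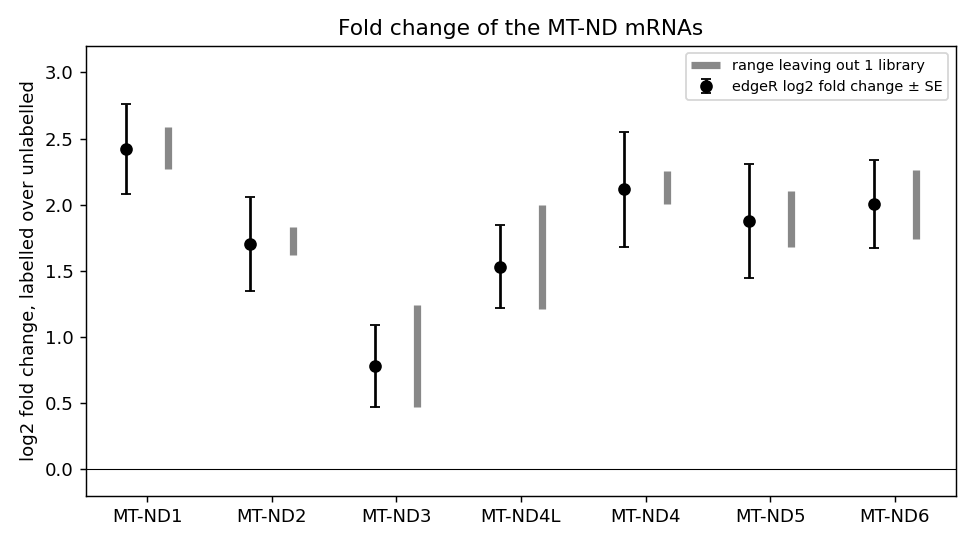
The log2 fold change, labelled over unlabelled, of each complex I mRNA. Black points with bars are the edgeR estimates ± SE from all 4 libraries, and grey bars span the 4 estimates that leave out 1 library each; MT-ND3 at 0.78 lay lowest and its grey bar ran from 0.47 to 1.24.

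Fold changes did not follow the order of the genes along the chromosome. From MT-ND1 to MT-ND6 the log2 fold changes were 2.42, 1.70, 0.78, 1.53, 2.12, 1.88 and 2.01, and their rank correlation with the start position was 0.04 (Spearman's rho across 7 genes, Pearson's r -0.21). With gene length the rho was 0.50 (r 0.50) across the 7 and 0.65 (r 0.61) across all 13 mitochondrial mRNAs. With the percentage of T the rho was -0.57 (r -0.26) across the 7 and -0.19 (r 0.08) across the 13. T was taken on the coding strand, but fragments were counted without strand. These genes share libraries and precursor RNAs and are not independent, so the coefficients are descriptions only.

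The members differed in their proportions to each other. Each was set against the summed counts of the other 6 in the same library, a ratio that scaling between libraries does not touch. MT-ND1 had log2 ratios of -2.99 and -2.99 in labelled libraries, against -3.50 and -3.62 in unlabelled libraries. That was a mean difference of 0.57, far above the spread within either group. MT-ND4 had -1.12 and -1.22 in labelled libraries, against -1.38 and -1.56 in unlabelled libraries, a difference of 0.30. Against the geometric mean of the other 6 in place of their sum, these differences were 0.74 for MT-ND1 and 0.38 for MT-ND4.

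MT-ND3 went the other way, with log2 ratios of -4.69 and -4.66 in labelled libraries, against -3.78 and -3.28 in unlabelled libraries. The difference of -1.14 means that MT-ND3 stood at 0.453 times its unlabelled proportion to the other members. Without unlabelled replicate 2 it was -0.89, and without unlabelled replicate 1 it was -1.39. MT-ND2 was at -2.49 and -2.63 in labelled libraries, against -2.26 and -2.39 in unlabelled libraries, a difference of -0.23. Against the geometric mean it was -0.10, about the spread between replicates. MT-ND4L was at -4.33 and -4.44 in labelled libraries, against -4.29 and -3.80 in unlabelled libraries, a difference of -0.34. Labelled replicate 1 and unlabelled replicate 1 nearly met, and the difference was -0.09 without unlabelled replicate 2 and -0.59 without unlabelled replicate 1.

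For each of these 5 members the exact permutation p was 0.333, the smallest that 2 against 2 libraries allow, so none of the differences could pass a threshold. The rate at which such ratios separate over other genes was not computed. For MT-ND5 and MT-ND6 the groups overlapped, with differences of -0.03 and 0.09 (exact permutation p = 0.667 for each). Against the geometric mean MT-ND5 was at 0.10. MT-ND5 took -1.59 and -1.47 in labelled libraries, against -1.54 and -1.45 in unlabelled libraries. Because the 7 ratios share their counts, a gain of one member lowers the ratios of the rest.

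**Figure D3:**
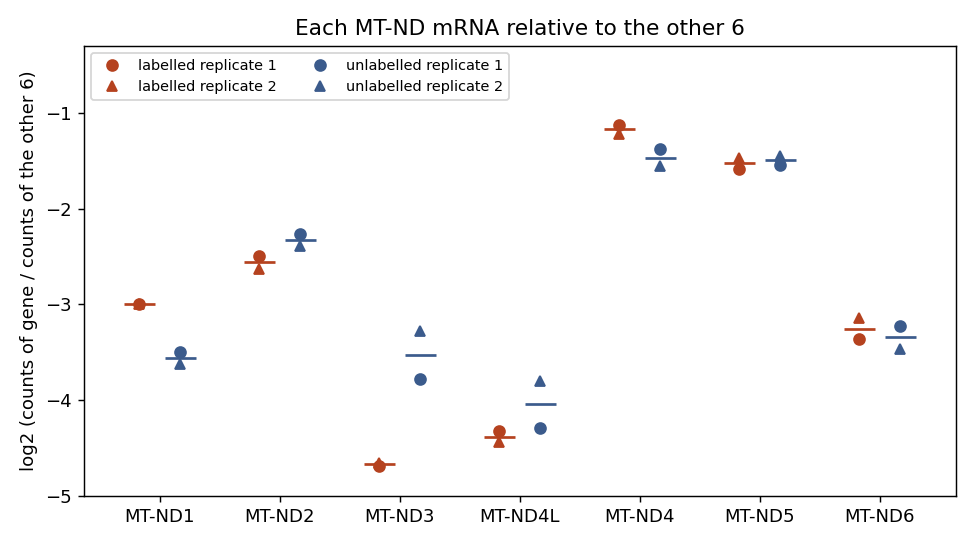
The log2 ratio of each complex I mRNA to the summed counts of the other 6, by library, for labelled (left, red) and unlabelled (right, blue) libraries. Circles are replicate 1, triangles replicate 2 and lines group means; MT-ND1 and MT-ND4 lay higher and MT-ND3 lower in labelled libraries, while MT-ND5 and MT-ND6 overlapped between the groups.

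The share of complex I in all mitochondrial mRNA did not separate the groups. The 7 genes took 43.0% and 45.0% of the counts of the 13 mRNAs in labelled libraries, against 43.4% and 47.2% in unlabelled libraries. The SDs were 1.43 points in labelled and 2.68 points in unlabelled libraries (n = 2 each), beside a difference of means of -1.26 percentage points with an exact permutation p of 0.667. The summed share of assigned fragments of the other 6 mRNAs was 3.08 times higher in labelled libraries by group means, beside 2.91 times for complex I. The sign of the difference in share was not stable, since it was 0.64 without unlabelled replicate 2 and 1.01 when counts were taken per kilobase.

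The shares of the single genes rest on the same counts as those ratios and are not independent of them. MT-ND4 took 13.5% and 13.5% of mitochondrial mRNA counts in labelled libraries, against 12.04% and 11.97% in unlabelled libraries. MT-ND1 took 4.79% and 5.02% in labelled libraries, against 3.52% and 3.54% in unlabelled libraries. The 95% Wilson intervals were 4.76 to 4.82% for MT-ND1 in labelled replicate 1 and 3.49 to 3.58% in unlabelled replicate 2, and cover counting error only. MT-ND3 took 1.61% and 1.72% in labelled libraries, against 2.94% and 4.40% in unlabelled libraries. MT-ND2 took 6.49% and 6.26% in labelled libraries, against 7.48% and 7.53% in unlabelled libraries.

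The share of MT-ND4L was 2.04% and 1.98% in labelled libraries, against 2.10% and 3.16% in unlabelled libraries. For these 5 genes the shares did not overlap between groups (exact permutation p = 0.333 for each, the smallest possible), and the same held for 4 of the other 6 mitochondrial mRNAs. The rate at which such shares separate over other genes was not computed. MT-ND5 took 10.7% and 11.9% in labelled libraries, against 11.1% and 12.7% in unlabelled libraries, and MT-ND6 took 3.80% and 4.58% in labelled libraries, against 4.19% and 3.91% in unlabelled libraries. These last 2 genes overlapped between the groups, with exact permutation p-values of 0.667 and 1. Without unlabelled replicate 2 the difference in share was -1.28 percentage points for MT-ND3, beside -2.01 with all libraries, and -0.09 for MT-ND4L, beside -0.62. Several differences also depended on gene length. With counts taken per kilobase, the difference was -0.08 points for MT-ND2, beside -1.14 per fragment, 0.58 for MT-ND5, beside -0.53, and 1.22 for MT-ND6, beside 0.14. MT-ND1, MT-ND3, MT-ND4 and MT-ND4L kept their direction per kilobase.

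Per kilobase, the order of the members differed between the groups. In labelled libraries MT-ND4 had the highest level, at 28300 and 33428 CPM per kilobase, followed by MT-ND6 at 20857 and 29776 and MT-ND4L at 19786 and 22733. MT-ND5, MT-ND2, MT-ND1 and MT-ND3 followed at group means of 19769, 19207, 16169 and 15145 CPM per kilobase. MT-ND5 and MT-ND2 changed places between the labelled libraries, while MT-ND2 was above MT-ND1 and MT-ND1 above MT-ND3 in both. MT-ND4 led and MT-ND3 was last in both labelled libraries.

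In unlabelled libraries MT-ND1 was last in both, at 2780 and 3255 CPM per kilobase. The other 6 lay between 4624 and 11178 CPM per kilobase, and the order at the top changed with the library. MT-ND4 led in unlabelled replicate 1 at 6602, followed by MT-ND3 at 6432. In unlabelled replicate 2 MT-ND3 led at 11178, followed by MT-ND4L at 9364 and MT-ND4 at 7641. The group means of MT-ND3, MT-ND4L and MT-ND4 were 8805 ± 3356, 7357 ± 2839 and 7121 ± 735 CPM per kilobase (SD, n = 2). The spread of MT-ND3 and MT-ND4L was largely common to both, since their ratio was 1.20 and 1.19 in unlabelled libraries, whereas MT-ND4 lay above both in unlabelled replicate 1 and below both in unlabelled replicate 2. For comparison, MT-CO1 had a mean of 48630 CPM per kilobase in labelled and 10744 in unlabelled libraries. It lay above all complex I mRNAs in every library, but only narrowly in unlabelled replicate 2, at 11243 against 11178 for MT-ND3.

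**Figure D4:**
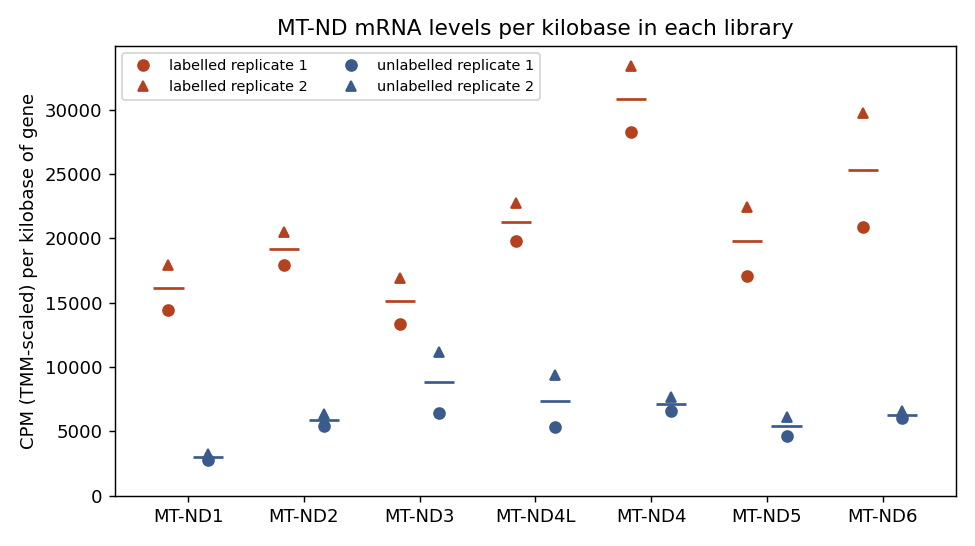
Level of each complex I mRNA per kilobase of gene, in CPM scaled by TMM, for labelled (left, red) and unlabelled (right, blue) libraries. Circles are replicate 1, triangles replicate 2 and lines group means; MT-ND4 was highest in both labelled libraries and MT-ND1 lowest in both unlabelled libraries.

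Counts per kilobase were not equal between neighbouring genes cut from the same precursor or carried on the same mRNA. Fragments that touch neighbouring genes at once are left out as ambiguous, and MT-ND3 and MT-ND4L are short. What part this had in the ratios was not tested. The level of MT-ND4L per kilobase was 0.699 and 0.680 times that of MT-ND4 in labelled libraries, against 0.810 and 1.23 times in unlabelled libraries. The level of MT-ND1 was 0.805 and 0.874 times that of MT-ND2 in labelled libraries, against 0.512 and 0.512 times in unlabelled libraries. MT-ND5 stood at 0.603 and 0.672 times MT-ND4 in labelled libraries, against 0.700 and 0.804 times in unlabelled libraries. MT-ND3 stood at 0.676 and 0.744 times MT-ND4L in labelled libraries, against 1.20 and 1.19 times in unlabelled libraries. Of 6 pairs compared, these 4 did not overlap between the groups (exact permutation p = 0.333 for each, the smallest possible). The pairs share genes and are not independent, and the rate at which such ratios separate over other gene pairs was not computed. The level of MT-ND6 was 1.22 and 1.32 times that of MT-ND5 in labelled libraries, against 1.30 and 1.07 times in unlabelled libraries, and the groups overlapped (exact permutation p = 0.667). The ratio of MT-ND4 to MT-CO1, both per kilobase, was 0.621 and 0.647 in labelled libraries, against 0.644 and 0.680 in unlabelled libraries, and the groups overlapped as well.

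Nuclear copies of the MT-ND genes carried few assigned fragments. The table lists 217 such pseudogenes, of which 21 passed the filter on low counts. Of these, 6 were higher and 0 lower over all genes with edgeR, beside 0.269% of all genes higher and 0.0158% lower, and DESeq2 also called 6. By gene, the summed pseudogene counts came to 0.0477% to 1.73% of the member's own count in every library, the highest for MT-ND2. The copies with the most fragments were MTND2P28 on chromosome 1 (629640 to 630683), at 306 and 326 CPM in labelled libraries, against 66.3 and 77.7 CPM in unlabelled libraries, and MTND4P12 on chromosome 5.

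MTND4P12 (134926660 to 134928036) had 126 and 117 CPM in labelled libraries, against 21.8 and 28.97 CPM in unlabelled libraries. It lies in 1 stretch with copies of MT-ND6, MT-ND5 and MT-ND4L, namely MTND6P4, MTND5P11 and MTND4LP30, which had log2 fold changes of 1.81, 1.97 and 1.77. MTND4P12 and MTND2P28 had 2.27 and 2.14. Of the 5 named here, all but MTND4LP30 (edgeR adjusted p 0.213) passed the threshold, as did MTND1P23 at 2.37 and MTND1P9 at 2.17. None of the 23 copies of MT-ND3 could be tested. Fragments that fit a copy and the mitochondrial gene equally well are left out, and reads of near-identical copies cannot be assigned with certainty. Over all genes, 6059635 and 15992331 alignments were set aside as multi-mapping in labelled libraries, against 22599823 and 7158307 in unlabelled libraries. They are not given by gene, so the loss for the members and their copies could not be measured. Adding all copies to their gene left the log2 fold changes of the 7 between 0.78 and 2.42.

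No rise of the nuclear-encoded side of complex I was called. Of 37 nuclear-encoded subunits, all tested, 0 passed edgeR and 0 passed DESeq2 over all genes, where DESeq2 called 0.389% of genes in either direction. At an unadjusted edgeR p under 0.05, 2 were higher and 13 lower, beside 5.67% and 5.88% of all genes. Their median log2 fold change was -0.18, set beside 1.88 for the 7 mitochondrial members. The 3 with the smallest p were accessory subunits, NDUFB7 at -0.49, NDUFB4 at -0.49 and NDUFC1 at -0.46, with edgeR adjusted p-values of 0.194, 0.199 and 0.259. NDUFB7 stood at 40.9 and 39.2 CPM in labelled libraries, against 56.5 and 55.7 CPM in unlabelled libraries.

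Of 18 assembly factors, which help to put complex I together, 0 passed edgeR or DESeq2, and the median was -0.05. At an unadjusted edgeR p under 0.05, 1 was higher and 2 lower, beside 5.67% and 5.88% of all genes. NDUFAF8 was at -0.42, NDUFAF4 at 0.33 and FOXRED1 at -0.37. Of 23 nuclear factors of mitochondrial transcription and mRNA maturation, 0 passed edgeR or DESeq2, with a median of 0.04. Here 1 was higher and 0 lower at an unadjusted edgeR p under 0.05, beside the same shares of all genes. MTPAP, the mitochondrial poly(A) polymerase, was at 0.46 (edgeR adjusted p 0.225). LRPPRC and SLIRP, which form a complex that stabilises mitochondrial mRNAs, were at -0.28 and -0.27.

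**Figure D5:**
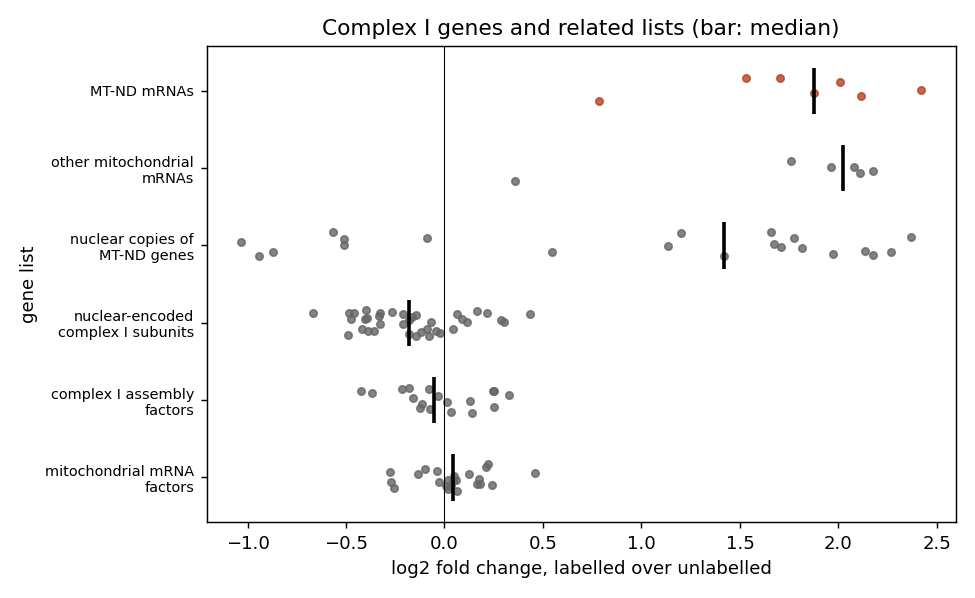
The log2 fold change, labelled over unlabelled, of each tested gene in the complex I mRNAs (red) and in 5 related lists (grey), with vertical bars at the medians. The median was 1.88 for the complex I mRNAs, 2.02 for the other mitochondrial mRNAs, 1.422 for nuclear copies of the MT-ND genes and between -0.18 and 0.04 for the 3 lists of nuclear genes.

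Among the other 6 mitochondrial mRNAs, whose median stood at 2.02 on the log2 scale, 2 rose with edgeR over all genes, MT-CYB at 2.11 and MT-CO3 at 1.96, beside 0.269% of all genes. At an unadjusted edgeR p under 0.05, 5 of the 6 were higher, beside 5.67% of all genes. DESeq2 called 5 of the 6 as higher, beside 0.327% of genes with an adjusted p. The lowest was MT-ATP8 at 0.36, the shortest of the 13 genes at 207 bases, which overlaps MT-ATP6. Its share of mitochondrial mRNA counts was 1.44% and 1.58% in labelled libraries, against 3.35% and 5.59% in unlabelled libraries. Like MT-ND3 and MT-ND4L, MT-ATP8 was higher in unlabelled replicate 2 than in unlabelled replicate 1, by 0.96 on the log2 scale.

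Genes whose profile over the 4 libraries lay closest to the mean profile of the 7 were found by Euclidean distance of log2 CPM, each centred on its own mean. Outside the 7, the nearest were MT-ATP6 at a distance of 0.18, the tRNA gene MT-TP at 0.19, the pseudogenes MTATP6P1 and MTND5P11 at 0.20 each, and the small nuclear RNA pseudogene RNU5E-4P at 0.25. RNU5E-4P had at most 4.33 CPM in any library. Among the members MT-ND5 lay nearest at 0.11, MT-ND1 was at 0.64, and MT-ND3 lay farthest at 1.00.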

How the data were processed

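The deposited series table gives unnormalized counts of fragments for each gene. Per the file headers, featureCounts 1.6.4 produced these counts on GENCODE 44, taking read pairs with both ends mapped over exons of a gene; neither strand nor multi-mapping options were set. The submitters' processing notes name STAR 2.7.9a, GRCh38 and DESeq2 1.42.0. Duplicate removal: not given in the sources used here. The deposited gene lengths are summed exon bases. A deposited summary gives counts of alignments by assignment status.

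All 62700 gene identifiers were paired with symbols. All 4 libraries entered 1 edgeR 4.0.16 fit in R 4.3.3 (glmQLFit and glmQLFTest, filterByExpr, TMM, no block), adjusted by Benjamini-Hochberg across the 18973 genes kept, at 0.05. SEs were taken as the absolute log2 fold change over the root of F. DESeq2 1.42.0, other scalings, no filter, a block, pseudogene counts added and leaving out each library were alternatives, with other denominators, counts per kilobase and a geometric mean for shares and ratios. Shares and ratios were compared by exact permutation tests and Wilson intervals (SciPy 1.17.1, Python 3.11.15). A count of 3 corresponds to 0.320 and 0.244 CPM in labelled and 0.367 and 0.520 CPM in unlabelled libraries, far below every member. The edgeR step was tested on simulated data.

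The members and lists were chosen with earlier results of these data known. The named genes were the 7 members, the other 6 mitochondrial mRNAs, the 5 genes nearest in profile and, in each list, the genes past the threshold or else the 3 with the smallest p, with the most abundant copy of each MT-ND gene.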

Additional observations from a re-analysis of the deposited data

How the results depend on the processing

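All 7 complex I mRNAs kept a positive log2 fold change under the 11 alternatives run for each. The number past the threshold, 2 of 7 with edgeR and TMM, was 6 with library size alone, 7 with no filter on low counts and 6 with DESeq2, and 3 to 7 when 1 library was left out. The cause was not tested. The number of genes called over the whole table, 54 (51 higher and 3 lower), was 2744 with library size alone (69 higher and 2675 lower) and 302 with no filter, and 58 to 3985 when 1 library was left out. Under library size alone the median over all tested genes was -0.37 on the log2 scale. With the replicate number as a block, 236 genes and 3 of the 7 members passed. Across genes, same-numbered libraries did not deviate together (r = -0.07), but for all 7 members replicate 2 was the higher one in both groups. The titles do not say whether same-numbered libraries belong together, and a correlation across genes cannot settle it. The difference in the summed share of complex I in mitochondrial mRNA, -1.26 percentage points, was -3.64 without MT-ATP8 and MT-ATP6 in the denominator and 1.01 per kilobase, and ran from -3.16 to 0.64 when 1 library was left out. The share in all assigned fragments differed by 7.14 to 8.80 percentage points when 1 library was left out. With 2 libraries a group, shares and ratios could not reach an exact p under 0.333, and the values of MT-ND3 and MT-ND4L depended on unlabelled replicate 2.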
